A study of Mus musculus with 12 samples.

Results

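The 31 keratin and keratin-associated protein genes measured in sorted dermal papilla (DP) cells were followed library by library. The members were all genes whose symbol begins with Krt and a number, or with Krtap, in either of the tables of P14 and P16 mice, which together hold 15557 genes. Keratins are the intermediate filament proteins of epithelial cells and are built as pairs of a type I and a type II chain. Each epithelial layer carries its own pairs, so that basal cells, suprabasal epidermis, outer root sheath, companion layer, inner root sheath and hair shaft can be told apart by the keratins they transcribe. The keratin-associated proteins form the matrix between the keratin filaments of the hair shaft. The DP is a cluster of mesenchymal cells at the base of the hair follicle that is enclosed by the epithelial matrix, the source of the sheath and shaft layers, and DP cells are known for vimentin and not for keratin filaments. The members were followed to see which keratin transcripts each sorted library held.

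Dorsal skin was dissociated and YFP+ cells were sorted by FACS in 2 rounds. In dMF1/2 mice (Cor-cre/+; Fgfr1 Flox/Flox; Fgfr2 Flox/Flox) Cor-cre makes Cre recombinase in the DP after birth, and both floxed receptor genes are deleted in cells with Cre. The labels call the controls wild type, whereas the methods describe mice with 1 floxed copy of each receptor gene or without Cre, and sorting on the Cre-dependent ROSA26 YFP reporter, present in both genotypes, needs Cre. There were 3 mice of each genotype at each of P14 and P16, days of the growth phase (anagen), giving 12 libraries.

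The libraries held 19302358 to 29860750 reads. Fgfr1 reads, counted over the whole gene, were lower in each dMF1/2 library than in each control library of the same day, whereas Fgfr2 values overlapped. The DP label was checked with 15 DP genes, among them Corin, Alpl and Vcan, and all 15 averaged 10 or more normalized reads on both days, where a normalized read is a read count divided by the size factor of its library. Their sum was lowest in P16 control replicate 1, at 58131 normalized reads, and at P16 it did not overlap between genotypes, with 58131, 107642 and 98430.0 in controls and 123862, 132762 and 174178 in dMF1/2 mice. At P14 the libraries of replicate 1 stood apart in both genotypes, with 17.7% and 21.0% of reads from Col1a1, Col1a2 and Col3a1 against 34.4% to 36.1% in the other P14 libraries. In these 2 libraries the DP sum was also the highest of P14 (185003 and 194780.0 against 116109 to 148895), as was the sum of keratinocyte genes other than keratins and Itgb4 (717 and 675 against 369.9 to 525), and the skeletal muscle sum was the lowest (981 and 1333 against 2971 to 4887). With Itgb4 included, the keratinocyte sum was instead highest in P14 dMF1/2 replicate 2, at 1783 normalized reads. The part of these differences in the keratin values was not tested.

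The upstream sequence of 4 members is shown because each leads a group whose values are followed below. Krt5 leads the basal keratins, Krt10 and Krt77 are the suprabasal genes whose values ran together across libraries, and Krt71 leads the inner root sheath keratins. Each stretch is the 120 bases before the start site on the minus strand, read 5′ to 3′ from RefSeq promoters of build GRCm38.p6, with TATAAA on the gene's strand in capitals. They lie at chr15:101712906-101713025 for Krt5, chr11:99389365-99389484 for Krt10, chr15:101869706-101869825 for Krt77 and chr15:101743098-101743217 for Krt71.
Krt5: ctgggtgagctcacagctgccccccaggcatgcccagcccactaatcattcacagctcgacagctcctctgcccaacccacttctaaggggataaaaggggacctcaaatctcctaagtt
Krt10: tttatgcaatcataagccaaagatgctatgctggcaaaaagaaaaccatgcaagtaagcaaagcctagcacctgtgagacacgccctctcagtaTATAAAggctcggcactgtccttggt
Krt77: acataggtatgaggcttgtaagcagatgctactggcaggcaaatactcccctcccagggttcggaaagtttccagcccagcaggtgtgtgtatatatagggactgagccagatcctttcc
Krt71: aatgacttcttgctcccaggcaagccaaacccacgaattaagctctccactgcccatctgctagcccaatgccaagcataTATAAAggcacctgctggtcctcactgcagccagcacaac

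TATAAA, the core letters of a TATA box, began 26 bases before the start site in Krt10 and 40 bases before it in Krt71, and these letters were not in the Krt5 and Krt77 stretches. A promoter of 300 bases was given for 21 of the 31 members. On either strand, 12 of the 21 held TATAAA (57.1%), against 13.6% of the 32851 promoters in the table. Among these 12, Krt72 held it on the opposite strand only. In Krt27 and Krt8 it began 15 and 1 bases before the start site, so the count is of letters and not of TATA boxes. The letters CTTTGAA, a binding motif of Tcf/Lef factors, were in 3 of the 21 members and in 5.14% of all promoters. GCCNNNGGC, an AP-2 motif, was in 2 of the 21 and in 16.6% of all promoters, and CATTCC, a Tead motif, was in 2 of the 21 and in 14.7%. None of the 4 motifs contains another of them, and a match describes the letters and not bound factor.

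Epithelial keratins were listed in every sorted library, at low levels. Of 110 annotated protein-coding genes of the family, 31 were listed at P14 and 21 of these also at P16, where the tables keep genes with a mean over 2 normalized reads. The listed members were spread over the layers. The 3 basal keratins Krt5, Krt14 and Krt15 were all listed, as were 3 of 6 outer root sheath and companion layer keratins, 6 of 7 inner root sheath keratins, 6 of 15 hair shaft keratins, 4 of 8 suprabasal epidermal keratins and 5 of 6 simple epithelial keratins. Of the keratin-associated genes, 2 of 15 glycine-tyrosine-rich members and 1 of 42 cysteine-rich members were listed. The remaining listed gene was Krt222. The 10 members listed at P14 alone were Krt25, Krt27 and Krt73 of the inner root sheath, Krt31, Krt33a, Krt82 and Krt83 of the hair shaft, and Krtap7-1, Krtap8-1 and Krtap11-1.

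All members together took 0.00279% to 0.00695% of the reads at P14, from 622 to 1362 reads per library. At P16 the 21 members took 0.00197% to 0.00473%, from 485 to 1140 reads. The share was highest at P14 in control replicate 1 (Wilson 95% interval 0.00659% to 0.00733%) and at P16 in control replicate 2 (0.00447% to 0.00502%), and these intervals cover counting error only. The lowest P16 share was that of control replicate 1 (0.00181% to 0.00213%), so control libraries held both extremes at P16. In bulk samples, fewer cells of a type and less RNA per cell cannot be told apart, and the source of these transcripts was not tested.

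**Figure D1:**
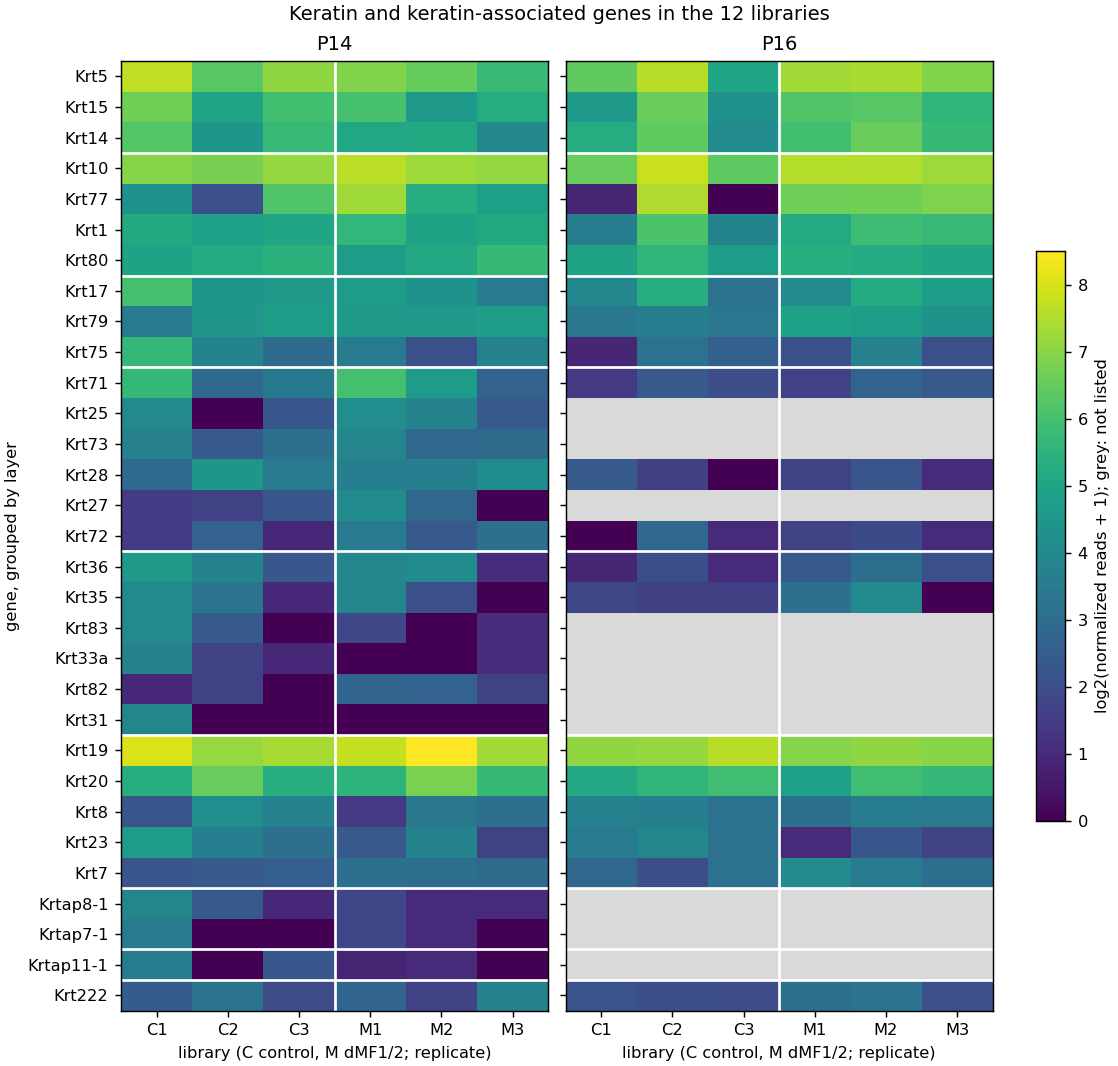
Heat map of log2(normalized reads + 1) for the 31 members (vertical axis, grouped by class) in the 12 libraries (horizontal axis), with grey for genes not listed on that day. The suprabasal, basal and simple epithelial classes hold the highest values, and Krt77 is at 0.873 and 0 normalized reads in P16 control replicates 1 and 3.

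The layers differed in level. Per kilobase of exon, Krt19 had the highest mean at P14, with 117 normalized reads per kilobase, followed by Krt10 at 67.6 and Krt5 at 51.5. At P16 Krt19 stood at 76.2, Krt10 at 72.6 and Krt5 at 57.2 reads per kilobase. Among follicle keratins, Krt71 led the inner root sheath keratins with 12 reads per kilobase at P14, and Krt36 led the hair shaft keratins with 7.13. Sheath and shaft keratins were thus below each of the 3 basal keratins and Krt10. Within a library the levels of partner chains were unequal. Krt5, the type II basal keratin, was above its type I partner Krt14 per kilobase in 6 of 6 libraries at P14, by 2.04 to 2.95 times, and in 6 of 6 at P16, by 1.45 to 2.12 times. Krt1 was below its partner Krt10 in every library, at 0.0910 to 0.133 times its level per kilobase at P14 and 0.0599 to 0.165 times at P16. The length used was the union of all annotated exons, 4415 bases for Krt1 and 2114 for Krt10, and these ratios depend on it.

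Reads could be shared between members of the family. For a read of 61 bases, 14 of the 31 members shared no exonic window with the transcripts of another annotated gene, whereas 8 shared more than 5% of their windows. The largest shares were 29.0% for Krt83 (with Krt81 and Krt86), 27.0% for Krt8 (with Krt8-ps and Gm36026) and 24.1% for Krt31. Krt5 shared 10.3% and Krt14 9.26%. Krt10, Krt7 and Krt80 overlap the antisense genes Gm11940, Gm671 and Gm35853 on the opposite strand, Krt8 overlaps the lincRNA Gm36026, and Krt5, Krt75 and Krt80 overlap the annotated miRNA genes Gm44323, Gm44460 and Mir1941. Their values are uncertain to that extent because the strand setting of the counting is not given in the sources used here.

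**Figure D2:**
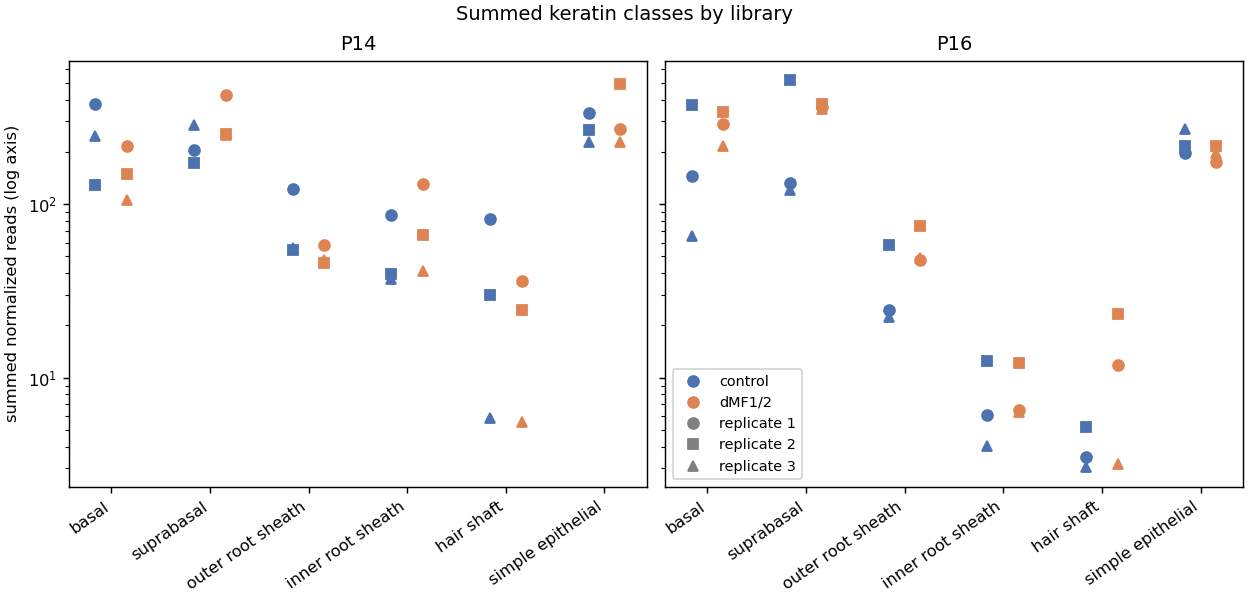
Summed normalized reads (vertical log axis) of the keratin classes in each library, 3 control and 3 dMF1/2 libraries per day. Hair shaft keratins ranged from 5.55 to 82.0 at P14, the widest spread of the 6 classes plotted, while simple epithelial keratins ranged from 227 to 492.

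The summed class levels were compared between libraries first. At P14 the basal sum was 378, 129 and 248 normalized reads in control replicates 1 to 3 and 215, 148 and 106 in dMF1/2 replicates 1 to 3. The inner root sheath sum was 86.6, 39.7 and 37.1 in controls and 130.3, 66.1 and 41.1 in dMF1/2 mice. The hair shaft sum was 82.0, 30.0 and 5.85 in controls and 36.1, 24.5 and 5.55 in dMF1/2 mice. In each of these 3 classes replicate 1 was the highest library of its genotype, and the groups overlapped. Between libraries of the same replicate number, the inner root sheath sum was higher in dMF1/2 mice in 3 of 3 pairs, the hair shaft sum was lower in 3 of 3, in replicate 3 with 5 against 6 reads, and the basal sum was lower in 2 of 3, with no test of these sums. The log2 ratios of the group means, dMF1/2 over control, were -0.69 for the basal, 0.54 for the inner root sheath and -0.83 for the hair shaft keratins. The hair shaft sum differed 14.8 times between its highest and lowest P14 library, the basal sum 3.58 times, the inner root sheath sum 3.52 times and the simple epithelial sum 2.17 times.

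At P16 the order of libraries was another. The basal sum was 146, 371 and 65.9 normalized reads in control replicates 1 to 3 and 289.5, 339.7 and 216 in dMF1/2 mice. The suprabasal sum, of Krt1, Krt10, Krt77 and Krt80, was 132, 516 and 121 in controls and 361, 377 and 352 in dMF1/2 mice. Control replicate 2 was the highest P16 library for both sums, control replicates 1 and 3 were the lowest, and the dMF1/2 libraries lay between them. The inner root sheath sum, 6.11, 12.4 and 4.06 in controls and 6.48, 12.1 and 6.35 in dMF1/2 mice, rested on 4 to 13 reads per library. The hair shaft sum of Krt35 and Krt36 was 3.49, 5.18 and 3.04 in controls and 11.9, 23.3 and 3.18 in dMF1/2 mice, from 3 to 25 reads per library, and the groups overlapped. The outer root sheath and companion layer sum was 24.4, 58.1 and 22.3 in controls and 47.5, 74.7 and 48.7 in dMF1/2 mice. Between libraries of the same replicate number, the hair shaft sum was higher in dMF1/2 mice in 3 of 3 P16 pairs, in replicate 3 with 3 reads in both libraries. The outer root sheath and companion layer sum was higher in 3 of 3 pairs at P16 and lower in 3 of 3 at P14, with no test of these sums.

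Single libraries were the highest for many members at once. At P14 control replicate 1 was highest for 14 of the 31 members, including Krt5, Krt14, Krt15, Krt17, Krt75, 5 of the 6 hair shaft keratins and the 3 keratin-associated genes, and dMF1/2 replicate 1 was highest for 10, including Krt1, Krt10, Krt77 and 5 of the 6 inner root sheath keratins. Of the 14 members, 6 (Krt31, Krt33a, Krt83, Krtap7-1, Krtap8-1 and Krtap11-1) averaged 2 or fewer normalized reads over the other 5 libraries, so that their listing, and with it their highest value there, was set by control replicate 1. Over the 16 tested members these libraries were highest for 7 and 4, where they were highest for 20.4% and 20.9% of all tested genes, so that the count for dMF1/2 replicate 1 was near the background. Of the 7, Krt75, Krt23 and Krt36 averaged 10 or more normalized reads only through control replicate 1. Without that library 13 members were tested, so that its count of 7 was partly set by the filter. At P16 control replicate 2 was highest for 9 of the 21 members and dMF1/2 replicate 2 for 6, whereas dMF1/2 replicate 3 was highest for none. Among the members averaging 10 or more normalized reads, which are those tested below, P16 control replicate 2 was highest for 7 of 12, where it was highest for 14.4% of all tested genes, dMF1/2 replicate 2 for 1 of 12 (16.6% of all tested genes) and dMF1/2 replicate 3 for 0 of 12 (20%). P16 control replicate 3 was lowest for 8 of 12 members, against 16.9% of all tested genes. The members also varied more among mice than most genes did. In P14 control and P14 dMF1/2 mice, 15 of 16 tested members had an SD of log2 values above the median of all tested genes, as did 12 of 12 in P16 control and 9 of 12 in P16 dMF1/2 mice. The median SD of the members was 0.782, 0.663, 0.931 and 0.281 in these groups, against 0.175, 0.172, 0.153 and 0.158 for all genes, and the members' low counts enter their SD.

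Keratin genes were compared between dMF1/2 and control mice at P14. No tested member passed the test, the basal keratins were lower on average in dMF1/2 mice and the suprabasal keratins Krt10 and Krt77 higher, and the values of the genotypes overlapped for each of these genes. With limma and Benjamini-Hochberg adjustment, 0 of the 16 tested members were called, and 0 had an unadjusted p under 0.05. Over all 13334 genes tested, limma called 0.0525%, and 7.32% passed at the unadjusted p. edgeR, which called 0.0525% of all genes, and DESeq2, which called 1.55%, also called 0 of the 16 members. The median log2 fold change of the 16 members was 0.08 with 8 positive, against 0.00 for all genes.

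Krt5 (ENSMUSG00000061527, chr15:101707070-101712891) had 205, 77.2 and 136 normalized reads in P14 control and 119, 89.6 and 53.3 in dMF1/2 mice, and the ranges overlapped. Its mean was 139 ± 64.0 (SD, n = 3) in controls and 87.2 ± 32.7 (SD, n = 3) in dMF1/2 mice, with a log2 fold change of -0.63 ± 0.41 (SE, limma's adjusted p = 0.871). Krt14 had 73.6, 21.4 and 52.7 in controls and 32.8, 35.2 and 14.4 in dMF1/2 mice. The log2 fold change of Krt14 was -0.75 ± 0.53 (SE, limma's adjusted p = 0.888). Krt15, a keratin of the bulge and basal layer, had 99.7, 30.0 and 59.5 in controls and 63.9, 23.5 and 37.8 in dMF1/2 mice. For all 3 basal keratins control replicate 1 was the highest of the 6 libraries. The log2 fold change of Krt15 was -0.54 ± 0.51 (SE, limma's adjusted p = 0.933).

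In the outer root sheath and companion layer, Krt17 had 62.4, 21.4 and 22.4 normalized reads in P14 control and 25.2, 19.2 and 10 in dMF1/2 mice. Krt75, the companion layer keratin, had 49.4, 12.9 and 6.83 in controls and 10.1, 3.20 and 12.2 in dMF1/2 mice. Both had their highest value in control replicate 1, and the other libraries overlapped. Their log2 fold changes were -0.84 ± 0.52 (SE, limma's adjusted p = 0.859) and -1.05 ± 0.78 (SE, limma's adjusted p = 0.900). Krt79, a keratin of the upper hair follicle duct, had 10.2, 20.4 and 26.3 in controls and 22.7, 23.5 and 25.5 in dMF1/2 mice, with a log2 fold change of 0.41 ± 0.38 (SE, limma's adjusted p = 0.933).

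In the suprabasal epidermis, Krt10 (ENSMUSG00000019761, chr11:99385254-99389364) had 124, 106 and 140.5 normalized reads in P14 control and 197, 151 and 139 in dMF1/2 mice. Its log2 fold change was 0.39 ± 0.18 (SE, limma's adjusted p = 0.754). Its partner Krt1 had 34.5, 27.9 and 31.2 in controls and 48.8, 28.8 and 34.4 in dMF1/2 mice, with a log2 fold change of 0.22 ± 0.26 (SE, limma's adjusted p = 0.966). Both were highest in dMF1/2 replicate 1, and the groups overlapped. Krt77 (ENSMUSG00000067594, chr15:101858732-101869705), a type II keratin of suprabasal epidermis, had 18.6, 3.22 and 71.2 in controls and 154, 38.4 and 26.7 in dMF1/2 mice. Its log2 fold change of 1.61 ± 1.07 (SE, limma's adjusted p = 0.875) was within this spread.

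In the inner root sheath, Krt71 (ENSMUSG00000051879, chr15:101733950-101743109), a type II keratin needed for a straight hair shaft in mice, had 49.4, 6.43 and 9.75 normalized reads in P14 control and 62.2, 24.5 and 5.55 in dMF1/2 mice. Both libraries of replicate 1 were the highest of their genotype, and the log2 fold change was 0.46 ± 0.99 (SE, limma's adjusted p = 0.991). Its type I partner Krt25 had 14.9, 0 and 3.90 in controls and 16.8, 12.8 and 4.44 in dMF1/2 mice, and Krt73, the cuticle keratin of the inner root sheath, had 12.1, 4.29 and 7.80 in controls and 13.4, 6.40 and 6.67 in dMF1/2 mice. Both stayed under the mean of 10 and were not tested. In the hair shaft, Krt36 had 23.3, 12.9 and 3.90 in controls and 14.3, 16 and 1.11 in dMF1/2 mice, with a log2 fold change of -0.53 ± 0.96 (SE, limma's adjusted p = 0.989). Krt35, an early matrix and cortex keratin, had 15.8, 8.58 and 0.975 in controls and 13.4, 3.20 and 0 in dMF1/2 mice, and Krt83 had 14.9, 4.29 and 0 in controls and 2.52, 0 and 1.11 in dMF1/2 mice. Replicate 3 was the lowest library of both genotypes for Krt35 and Krt36.

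The 3 keratin-associated genes were listed through 1 library, so that their high value there is no finding. Krtap11-1 had 11.2, 0 and 3.90 normalized reads in P14 control and 0.841, 1.07 and 0 in dMF1/2 mice, Krtap7-1 had 10.2, 0 and 0 in controls and 2.52, 1.07 and 0 in dMF1/2 mice, and Krtap8-1 had 14, 4.29 and 0.975 in controls and 2.52, 1.07 and 1.11 in dMF1/2 mice. Control replicate 1 was the highest library for each of the 3. Krt31, named here after its values were seen, had 15 reads in control replicate 1 and 0 in the other P14 libraries, where a count of 0 allows up to 3 reads. Among the members not given singly, Krt27, Krt28 and Krt72 had 0 to 21.4, Krt33a 0 to 13.0 and Krt80 24.4 to 51.1 normalized reads. Without both libraries of replicate 1, limma still called 0 of the 14 members it could test at P14.

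The simple epithelial sum had the smallest ratio of highest to lowest library among the 6 classes plotted above. Krt19 (ENSMUSG00000020911, chr11:100140810-100148665), a type I keratin of simple epithelia and of the bulge, had 266, 146 and 165 normalized reads in P14 control and 213, 353 and 159 in dMF1/2 mice. Its log2 fold change was 0.30 ± 0.33 (SE, limma's adjusted p = 0.955), and the groups overlapped. Krt20, the keratin of Merkel cells and gut epithelium, had 38.2, 90.1 and 38.0 in controls and 43.7, 109 and 51.1 in dMF1/2 mice, and replicate 2 was the highest library in both genotypes. The log2 fold change of Krt20 was 0.29 ± 0.46 (SE, limma's adjusted p = 0.985). Krt8 had 3.73, 17.2 and 12.7 in controls and 1.68, 9.6 and 7.78 in dMF1/2 mice. Krt23, named after its values were seen, had 24.2, 11.8 and 7.80 in controls and 4.20, 12.8 and 2.22 in dMF1/2 mice, with a log2 fold change of -1.21 ± 0.68 (SE, limma's adjusted p = 0.826). Krt222 had 2.13 to 12.2 normalized reads over the 6 libraries. The groups did not overlap for 2 members, Krt7 and Krt82, and both were higher in dMF1/2 mice. Krt7 had 3.73, 4.29 and 4.88 in controls and 7.56, 7.47 and 6.67 in dMF1/2 mice, and Krt82 had 0.932, 2.14 and 0 in controls and 5.88, 5.33 and 2.22 in dMF1/2 mice, where control replicate 2 and dMF1/2 replicate 3 both held 2 reads and were separated by their size factors alone. These were named after their values were seen, both were under the mean of 10, and none of the 16 tested members was separated, where 12.7% of all tested genes were. The exact permutation test of the means, two-sided, gave p = 0.1 for these 2, the smallest p that 3 against 3 allows.

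At P16 the comparison of dMF1/2 with control mice turned on 1 control library. The epidermal keratins Krt5, Krt14, Krt15, Krt1, Krt10 and Krt77 were low in control replicates 1 and 3, high in control replicate 2 and, in the dMF1/2 mice, mostly between the control values or near the higher one. Krt79 and Krt19 were the tested members whose groups did not overlap, with Krt79 higher and Krt19 lower in dMF1/2 mice. With limma and Benjamini-Hochberg adjustment, 0 of the 12 tested members were called, where 4.32% of all 13457 genes were called, and edgeR (4.48% of all genes called) also called 0. DESeq2, which called 8.33% of all genes, called 0 of the 11 members it gave a p and gave none for Krt77. At an unadjusted p under 0.05, limma had 2 of the 12, Krt79 and Krt77, where 19% of all genes passed. The median log2 fold change of the 12 members was 0.68 with 9 positive, against 0.00 for all genes. It was 1.28 without control replicate 2 and 0.21 without control replicate 3.

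Krt77 had 0.873, 177 and 0 normalized reads in P16 control replicates 1 to 3 and 98.3, 102 and 115 in dMF1/2 mice. These were 1, 171 and 0 reads in control and 91, 109 and 109 reads in dMF1/2 mice. The control values thus enclosed the dMF1/2 values, with a mean of 59.4 ± 102 (SD, n = 3) against 105 ± 9.03 (SD, n = 3). The SD of its log2 control values, 4.08, ranked 3 of 13457 genes, whereas its SD of 0.121 in dMF1/2 mice was at percentile 36.3. The log2 fold change was 3.93 ± 1.67 (SE, limma's adjusted p = 0.253) and depended on the pseudocount, with 5.34 at a pseudocount of 0.1 and 2.07 at 10, while edgeR gave 0.85 (adjusted p = 0.776) from the same reads.

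**Figure D3:**
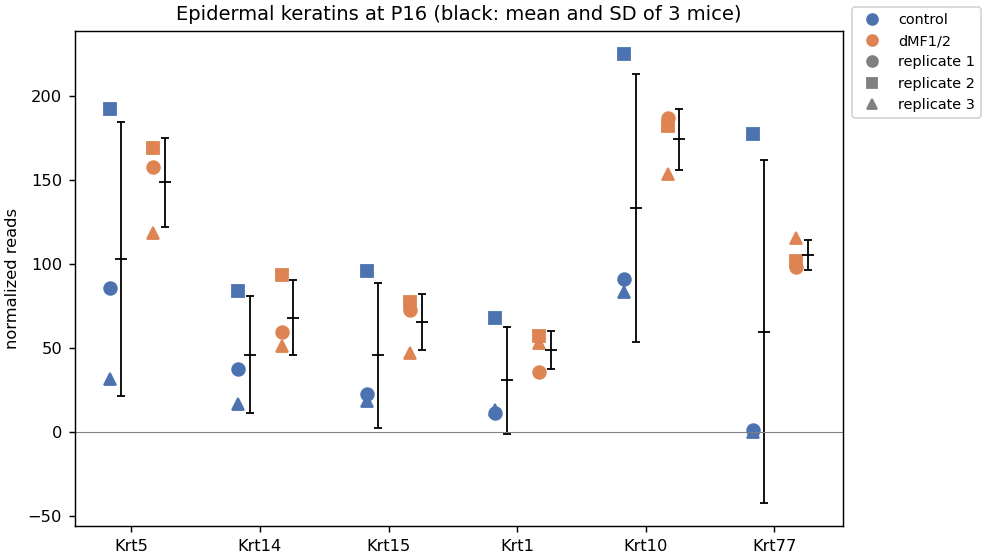
Normalized reads (vertical axis) of Krt5, Krt14, Krt15, Krt1, Krt10 and Krt77 in the P16 libraries, with points for mice and bars for the mean and SD of 3 mice per genotype. Control replicate 2 is the highest control point of every gene and lies far above control replicates 1 and 3.

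The other epidermal keratins were also highest in replicate 2 among the controls. Krt10 had 90.8, 225 and 83.1 normalized reads in P16 control and 187, 182 and 153 in dMF1/2 mice. Krt1 had 11.3, 67.4 and 13.2 in controls and 35.6, 56.9 and 52.9 in dMF1/2 mice. In both genes the dMF1/2 libraries lay above control replicates 1 and 3 and below control replicate 2. The log2 fold changes were 0.53 ± 0.35 (SE, limma's adjusted p = 0.473) for Krt10 and 1.09 ± 0.61 (SE, limma's adjusted p = 0.399) for Krt1. Krt5 had 85.6, 192 and 31.4 in controls and 158, 169 and 119 in dMF1/2 mice, with a log2 fold change of 0.86 ± 0.55 (SE, limma's adjusted p = 0.468). Krt14 (ENSMUSG00000045545, chr11:100203162-100207548) had 37.5, 84.0 and 16.2 in controls and 59.4, 93.3 and 50.8 in dMF1/2 mice. Krt15 had 22.7, 95.4 and 18.3 in controls and 72.4, 77.4 and 46.6 in dMF1/2 mice. Control replicate 2 was the highest of the 6 libraries for Krt5 and Krt15, while Krt14 was highest in dMF1/2 replicate 2. The log2 fold changes of Krt14 and Krt15 were 0.80 ± 0.53 (SE, limma's adjusted p = 0.491) and 0.88 ± 0.57 (SE, limma's adjusted p = 0.470).

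Leaving out P16 control replicate 2 changed the calls. Limma then called 4 of the 11 members tested, Krt1, Krt10, Krt15 and Krt77, all higher in dMF1/2 mice, where 5.08% of all genes were called. An unadjusted p under 0.05 was found for 8 of the 11, where 19.3% of all genes passed. The log2 fold changes were 1.88 for Krt1 (limma's adjusted p = 0.0211), 0.99 for Krt10 (adjusted p = 0.0197) and 1.60 for Krt15 (adjusted p = 0.0291). For Krt77 the fitted value was 6.27 (limma's adjusted p = 0.00123), but the remaining controls held 1 and 0 reads, so this value depends on the pseudocount and is no bound. Krt5 had 1.48 and Krt14 1.37, with limma's adjusted p = 0.0852 and 0.115. These fits set 2 control mice against 3 dMF1/2 mice, and nothing in the labels sets control replicate 2 apart. No member was called in the fits that left out another library of that day.

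Markers of other cells were read beside these values. P16 control replicate 2 was the highest P16 library for the summed endothelial genes (1547 normalized reads, range 630.4 to 1547), immune genes (454, range 253 to 454) and skeletal muscle genes (3519, range 1441 to 3519). It was not the highest for the melanocyte genes (164, range 126 to 222), the hair matrix, shaft and inner sheath genes other than keratins (2952, range 1419.6 to 3089.7) or the DP genes (107642, range 58131 to 174178). Of 21 keratinocyte genes other than keratins, 17 were listed, and Grhl3, Fgfbp1, Ivl and Flg were not. Their sum at P16 was 1422, 1549 and 1414 in controls and 1350.3, 1359 and 1472 in dMF1/2 mice. Itgb4, which is also made outside epithelia, took 720.4 to 1016 of this. Without Itgb4, an alternative added after the data were seen, the sum was 521, 792 and 398 in controls and 482, 638 and 555 in dMF1/2 mice, highest in control replicate 2. Single genes of the list ran otherwise, with Lgals7 at 129, 52.9 and 52.7 in controls and 25.9, 23.3 and 24.3 in dMF1/2 mice, and Ovol1 at 9.6, 18.7 and 26.4 in controls and 9.72, 6.53 and 9.53 in dMF1/2 mice. The listed genes differed in level over the 12 libraries. The adhesion gene Epcam was at most 8.30, the cornified envelope gene Lor at most 7.80, Cldn4 at most 9.72 and Dsg3 at most 12.1 normalized reads, whereas the desmosome gene Dsp ranged from 61.1 to 213, Perp from 45.4 to 142, the basal gene Trp63 from 43.7 to 77.8, Col17a1 from 37.8 to 88.1 and Cdh1 from 7.50 to 67.1. These last levels are of the size of the keratin counts. The part of these cells in the keratin values was not tested.

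Krt79 (ENSMUSG00000061397, chr15:101929332-101940324) had 9.6, 11.4 and 9.13 normalized reads in P16 control and 28.1, 26.1 and 19.1 in dMF1/2 mice. The groups were apart, with means of 10 ± 1.20 (SD, n = 3) and 24.4 ± 4.75 (SD, n = 3). The exact permutation test of the means, two-sided, gave p = 0.1, the smallest for 3 against 3. The log2 fold change was 1.19 ± 0.31 (SE, limma's adjusted p = 0.0744). The adjusted p was 0.0610 with the replicate number as a block, 0.0625 with edgeR, 0.0794 with DESeq2 and 0.0485 with edgeR and the block, the fit in which Krt79 was called along with 10.7% of all genes. It lay between 0.0932 and 0.212 when single libraries were left out, control replicate 2 among them, so the Krt79 difference did not turn on that library. Krt17 had 14, 38.4 and 8.11 in controls and 16.2, 36.4 and 26.5 in dMF1/2 mice, with a log2 fold change of 0.57 ± 0.55 (SE, limma's adjusted p = 0.659). Krt75, not tested at P16, had 0.873, 8.30 and 5.07 in controls and 3.24, 12.1 and 3.18 in dMF1/2 mice.

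Krt19 had 134, 141 and 189.6 normalized reads in P16 control and 122, 134 and 127 in dMF1/2 mice. Its lowest control value was above its highest dMF1/2 value by less than 1 read, and its log2 fold change was -0.26 ± 0.16 (SE, limma's adjusted p = 0.445). Krt20 had 34.0, 46.7 and 58.8 in controls and 28.1, 57.9 and 49.7 in dMF1/2 mice (log2 fold change -0.07 ± 0.32 SE, limma's adjusted p = 0.946), and Krt8 had 12.2, 11.4 and 8.11 in controls and 7.56, 11.2 and 10.6 in dMF1/2 mice (-0.10 ± 0.38 SE, limma's adjusted p = 0.927). In these simple epithelial keratins control replicate 2 did not stand apart from the other controls. Of the 12 tested members, 2 had groups that did not overlap, where 24.5% of all tested genes did. Of the 9 untested members, Krt36 and Krt23 also had groups that did not overlap. Krt36 had 0.873, 3.11 and 1.01 in controls and 4.32, 7.47 and 3.18 in dMF1/2 mice, where the nearest libraries, control replicate 2 and dMF1/2 replicate 3, both held 3 reads and were separated by their size factors alone. Krt23, named after its values were seen, had 10.5, 13.5 and 8.11 in controls and 1.08, 3.73 and 2.12 in dMF1/2 mice. When no filter on the mean was set, the log2 fold change of Krt23 was -1.87 (limma's adjusted p = 0.0709).

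Among the remaining P16 members, Krt71 had 1.75, 4.15 and 3.04 normalized reads in control and 2.16, 5.60 and 4.23 in dMF1/2 mice. Krt35 had 2.62, 2.07 and 2.03 in controls and 7.56, 15.9 and 0 in dMF1/2 mice. Both were under the mean of 10 and were not tested, and their groups overlapped. Krt222 had 3.04 to 8.40, Krt28 and Krt72 0 to 6.22, Krt7 3.11 to 16.2 and Krt80 24.3 to 46.7 normalized reads.

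The days were compared after the reads of the 14986 genes on both tables were rescaled over the 12 libraries. Summed inner root sheath keratins were lower at P16 than at P14 in both genotypes, without overlap, and the simple epithelial sum was lower without overlap in dMF1/2 mice (274, 496 and 229 jointly scaled reads at P14, 171, 214 and 193 at P16). The hair shaft, outer root sheath, basal and suprabasal sums overlapped between days in both genotypes. The sum of Krt28, Krt71 and Krt72 was 58.5, 33.7 and 21.7 jointly scaled reads in P14 control and 6.02, 12.2 and 4.01 in P16 control, and 85.2, 40.9 and 30.3 in P14 dMF1/2 and 6.34, 11.9 and 6.23 in P16 dMF1/2 mice. Every P14 library was above every P16 library. The sum of Krt35 and Krt36 was 22.1 ± 17.3 (SD, n = 3) and 3.85 ± 1.10 (SD, n = 3) in controls and 16.2 ± 13.8 (SD, n = 3) and 12.6 ± 9.94 (SD, n = 3) in dMF1/2 mice, on P14 and P16. A further 3 inner root sheath and 4 hair shaft keratins were listed at P14 alone, but 3 of these hair shaft keratins were listed through P14 control replicate 1 only. Of all genes listed at P14, 1.47% were listed on that day alone.

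Of 13 members tested between days, limma called 0 in either genotype after Benjamini-Hochberg adjustment, where it called 14.5% of all 13415 genes in control and 5.8% in dMF1/2 mice. At an unadjusted p under 0.05 there were 3 members in control (Krt71, Krt75 and Krt79), where 31.9% of all genes passed, and 2 in dMF1/2 mice (Krt19 and Krt71), where 22.8% passed. Krt71 and Krt75 met the mean of 10 through P14, with P16 means of 3.49 and 5.46 normalized reads, so that the filter favoured their fall. Krt75 met it only through P14 control replicate 1, without which 12 members were tested. edgeR called 0 members in both genotypes (15.1% of all genes in control and 5.72% in dMF1/2 mice). DESeq2 called Krt71 in control, where it called 19.2% of all genes, and Krt19 and Krt71 in dMF1/2 mice, where it called 9.92%. In control mice 0 of the 13 log2 fold changes, P16 over P14, were positive, with a median of -0.71 against 0.01 for all genes. By DESeq2 and by edgeR 2 of the 13 were positive, and with single libraries left out 0 to 3 were. In dMF1/2 mice 7 of 13 were positive, with a median of 0.07 against 0.01. The dMF1/2 and control changes share no library, but the values of the 13 members are not independent of each other within a library.

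Krt71 had 50, 6.52 and 9.88 jointly scaled reads in P14 control and 1.72, 4.08 and 3.00 in P16 control, and 63.1, 24.8 and 5.61 in P14 dMF1/2 and 2.11, 5.50 and 4.15 in P16 dMF1/2 mice. The days did not overlap in either genotype, but in dMF1/2 mice they were separated by the size factors alone. The nearest libraries there, P14 replicate 3 and P16 replicate 2, held 5 and 6 reads. The log2 fold changes were -2.08 ± 0.85 in control (SE, limma's adjusted p = 0.117, DESeq2's 0.0187) and -2.24 ± 0.85 in dMF1/2 mice (SE, limma's adjusted p = 0.140, DESeq2's 0.0218). With single libraries left out they ranged from -2.63 to -1.25 in control and from -3.11 to -1.47 in dMF1/2 mice. Krt19 had 216, 356 and 160.4 jointly scaled reads in P14 dMF1/2 and 119, 132 and 125 in P16 dMF1/2 mice, also without overlap, with a log2 fold change of -0.88 ± 0.28 (SE, limma's adjusted p = 0.0910, DESeq2's 0.0237). Krt14 had 33.2, 35.5 and 14.6 in P14 dMF1/2 and 58.1, 91.7 and 49.9 in P16 dMF1/2 mice, with a log2 fold change of 1.28 ± 0.59 (SE, limma's adjusted p = 0.222). Tested members without overlap between days were thus Krt14, Krt19 and Krt71 of 13 in dMF1/2 mice, where 27.6% of all genes were without overlap, and Krt71 of 13 in control mice, where 36% were. In control mice the Krt14 value was -0.26 ± 0.59 (SE, limma's adjusted p = 0.791).

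Krt79 had 10.4, 20.7 and 26.7 jointly scaled reads in P14 control and 9.47, 11.2 and 9.01 in P16 control mice, and 18.7 to 27.5 in the 6 dMF1/2 libraries of both days. Its log2 fold change between days in control mice was -0.80 ± 0.33 (SE, limma's adjusted p = 0.119), and -1.17 without P14 control replicate 1 (limma's adjusted p = 0.0415, with 5.83% of all genes called). Krt75 had a log2 fold change of -1.93 ± 0.83 in control mice (SE, limma's adjusted p = 0.134). Without P16 control replicate 2, limma called Krt1 (-1.31, adjusted p = 0.0208) and Krt77 (-3.75, adjusted p = 0.0385) as lower at P16 in control mice, with 12.6% of all genes, whereas with all libraries they had -0.53 ± 0.53 and -1.42 ± 1.63 (SE, limma's adjusted p = 0.522 and 0.581). The Krt77 value of -3.75 rests on P16 controls with 1 and 0 reads and depends on the pseudocount, and with all libraries DESeq2 and edgeR gave Krt77 the opposite sign (0.90 and 0.84).

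Whether the genotype difference changed between days was tested as an interaction. It was called for 0 of the 13 members by limma, edgeR and DESeq2, where limma and edgeR called 0% of all 13415 genes and DESeq2 0.0522%, and no member had an unadjusted p under 0.05, where 4.83% of genes did. The largest values among the basal keratins were 1.54 ± 0.83 for Krt14 and 1.49 ± 0.78 for Krt5 (log2, SE, limma's adjusted p = 1.0 for both). The genotype differences of Krt5 and Krt14, negative at P14 and positive at P16, were thus not shown to differ between days.

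Keratins of 1 layer were compared across the 12 libraries as pairs. Krt5 and Krt14 varied together, with Pearson's r = 0.924 (permutation p = 2e-05, adjusted 8e-05) and Spearman's rho = 0.916 (permutation p = 4e-05, adjusted 0.00016). Within P14 r was 0.967 (exact permutation p = 0.00556) and within P16 0.978 (exact permutation p = 0.00278), each over 6 libraries, and r was 0.901 without the 2 libraries farthest from the median of Krt5. Krt1 and Krt10 had r = 0.897 (permutation p = 0.00019, adjusted 0.00038) and rho = 0.783 (permutation p = 0.00377, adjusted 0.00754). Within P14 r was 0.780 (exact permutation p = 0.0972) and within P16 0.938 (exact permutation p = 0.0236), and r was 0.749 without P16 control replicates 1 and 3. Krt71 and Krt25, both listed at P14 alone as a pair, had r = 0.823 over 6 libraries (exact permutation p = 0.0472, adjusted 0.0630) and rho = 0.829 (exact permutation p = 0.0583, adjusted 0.0778), and r was 0.714 without 2 libraries.

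Across layers the pair Krt14 and Krt71 had r = 0.0970 (permutation p = 0.761) and rho = -0.105 (permutation p = 0.747) over the 12 libraries. Within P14 r was 0.626 (exact permutation p = 0.200) and within P16 0.480 (exact permutation p = 0.360). The libraries of 1 day share the scaling of their table, and those of 1 replicate number deviated together. The permutations of all pairs ignored genotype and replicate number, so these p-values may be too small. Of 9 pairs planned, 4 could be computed and p was adjusted over these 4, since the partners Krt85 and Krt18 had no value in the tables used here.

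**Figure D4:**
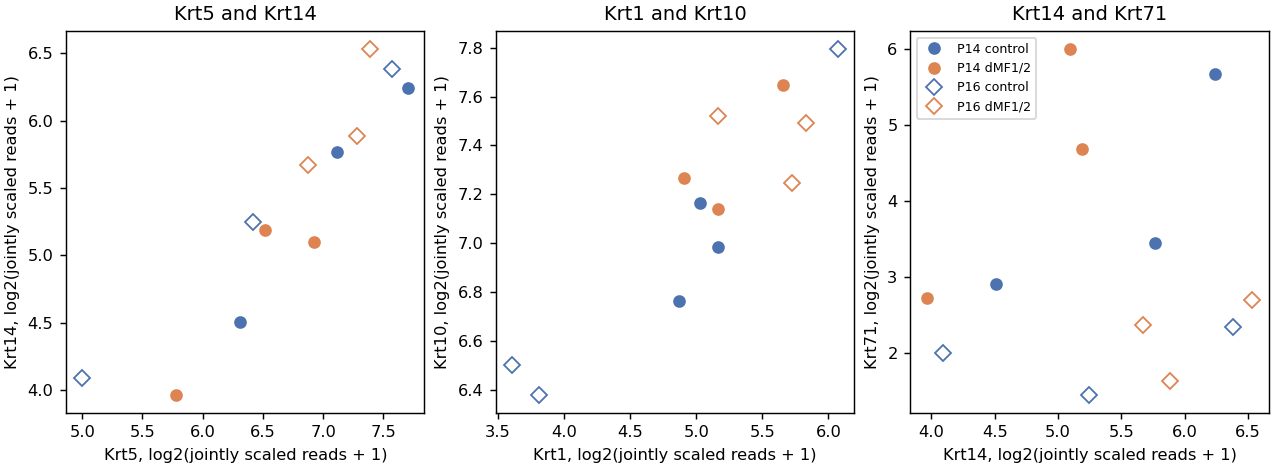
Scatter plots of log2(jointly scaled reads + 1) for Krt5 and Krt14, Krt1 and Krt10, and Krt14 and Krt71, with 1 point per library. The partner pairs of a layer follow a line, and the pair across layers separates by the lower Krt71 level of P16.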

How the data were processed

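The RNA-seq libraries came from sorted YFP+ DP cells, 3 mice per genotype and day. The P10, P12 and P18 libraries were not analysed here. Per the labels and methods, the authors depleted ribosomal RNA, used Trimmomatic for trimming and TopHat2 (version 2) for mapping to mm10, and counted reads with HTSeq on Ensembl GRCm38.p4, with strand and multi-mapping settings not given in the sources used here. The signal values the authors deposited are reads divided by DESeq2 size factors, in 1 table per day (15209 genes at P14, 15334 at P16). The tables also hold the authors' own fold changes and p-values, which were not used. All values were whole multiples of 1 read of the library within 0.001, so whole reads were recovered (100% of values).

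Values were tested on log2(normalized reads + 1), with the pseudocount 1, by limma 3.58.1 in R 4.3.3 (mean-variance trend) over all genes averaging 10 or more, with Benjamini-Hochberg adjusted p-values and a threshold of 0.05. A fold change on this scale understates the change of low genes. For days, reads of 14986 shared genes were rescaled over 12 libraries by the median of ratios, and 1 model held all 4 groups. p-values measure the spread between these mice. Single genes also had an exact permutation test of means (scipy 1.17.1), and correlations over 12 libraries a permutation test, all two-sided. edgeR 4.0.16 and DESeq2 1.42.0 on the recovered reads, other pseudocounts, filters and scalings, and leaving out each library were alternatives. The fits were checked on simulated data, where DESeq2 made a larger share of false calls than limma and edgeR.

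Libraries with the same replicate number, as numbered in the labels, deviated together within a day (correlations of deviations from the group mean 0.586, 0.389 and 0.304 at P14, and 0.256, 0.293 and 0.311 at P16), so the number was tried as a block. The keratin classes follow textbook sites of expression. The genes described singly were the 3 most abundant members of each class, any member called in a comparison, and the genes of the correlation pairs. The members, lists and rules were chosen with earlier results of these data known. Added after seeing the data were edgeR with the replicate block, leaving out both P14 replicates 1, the keratinocyte list without Itgb4 and the hair list without Crym. Gene coordinates are those of the mm10 assembly, from the GENCODE M21 annotation. Promoters came from a RefSeq table of the GRCm38.p6 assembly.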

Additional observations from a re-analysis of the deposited data

How the results depend on the processing

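No member was called between genotypes on either day, or in the interaction, under other pseudocounts, filters, TMM scaling, edgeR, DESeq2 or limma with the replicate block. In the paired fit, limma with the block called 0 members at P14, P16 and in the interaction. At an unadjusted p under 0.05 it had 2 of 16, 5 of 12 and 4 of 13 members, where 1747 of 13334, 3437 of 13457 and 1467 of 13415 genes passed. In the same design edgeR called 1 member at P16 (Krt79, adjusted p = 0.0485), with 10.7% of all genes called. Between days in control mice 1 of 21 members was called with no filter on the mean (Krt28, lower at P16). In that fit 797 of 14986 genes were called higher and 1042 lower. DESeq2 called 1 member in control mice (Krt71) and 2 in dMF1/2 mice (Krt19, Krt71), where it called 19.2% and 9.92% of all genes. With single libraries left out, calls numbered 0 to 0 at P14, in dMF1/2 mice between days and in the interaction, 0 to 4 at P16 (4 without control replicate 2) and 0 to 2 between days in control mice (2 when P16 control replicate 2 was left out, 1 for P14 control replicate 1).

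Left-out libraries turned the sign of log2 fold changes that were not called, with ranges of -0.013 to 0.56 for Krt19, -0.10 to 0.70 for Krt20, -1.16 to 0.45 for Krt36 and -0.30 to 1.34 for Krt71 at P14, -0.27 to 0.24 for Krt20 and -0.27 to 0.056 for Krt8 at P16, and -0.84 to 0.31 for Krt14 between days in control mice. The change of Krt77 between days in control mice was 0.90 by DESeq2 and 0.84 by edgeR, against -1.42. The correlation of Krt14 and Krt71 was -0.12 without the 2 farthest libraries. The cause was not tested.

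The log2 ratios of class sums kept their sign under library-size scaling and without the highest member of the class, except the P16 inner root sheath ratio (0.14), which was -0.08 without its highest member. Leaving out single libraries turned the sign of the P14 hair shaft and simple epithelial ratios and of the inner root sheath ratio on both days. The ratios then were -1.0 to -0.27 (P14) and 0.12 to 1.41 (P16) for basal, -0.02 to 1.05 and -0.23 to 0.71 for inner root sheath, -1.38 to 0.30 and 0.95 to 2.17 for hair shaft, and -0.16 to 0.46 and -0.31 to -0.07 for simple epithelial keratins. Sheath and shaft sums rested on 3 to 25 reads per library at P16, which limits their precision.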

Other observations

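The genes whose log2 values ran closest to each keratin over the 12 libraries were looked up among 13415 genes after the data were seen, as a description in which the points share the libraries and the day. Krt77 and Krt10 were each other's closest gene (Pearson's r = 0.958), and Krt77 was the closest gene to Krt1 (r = 0.907). Krt14 was the closest gene to Krt5 (r = 0.924), while Krt14 itself was closest to Fcgbp (r = 0.949) and Col17a1 (r = 0.939), the latter a basal keratinocyte hemidesmosome gene, with Krt5 at rank 3. Krt5 was also at rank 3 for Krt15 and rank 6 for Krt17. Among the simple epithelial keratins, of which Krt19 and Krt20 were looked up, the closest keratin to Krt19 was Krt71 at rank 49, and Krt20, with Mcm6 as its closest gene (r = 0.921), had its first keratin at rank 1210. For Krt71, Krt75, Krt79 and Krt80 the first keratin was at rank 341, 1011, 719 and 1021.

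Hair matrix, shaft and inner sheath genes other than keratins summed to 5819, 3781 and 3701 normalized reads in P14 controls and 3341, 2051 and 2565 in P14 dMF1/2 mice, without overlap but with no test made, and 16 of the 20 genes of the list were listed. This separation of the sum rested on Crym, with 711 to 4309.8 normalized reads at P14. Without Crym, left out after the data were seen, the P14 sum was 1509, 1297 and 1294 in controls and 1358, 1340.0 and 1214 in dMF1/2 mice, which overlapped. At P16 the sum was 1419.6, 2952 and 2809.5 in controls and 2711, 2348 and 3089.7 in dMF1/2 mice, lowest in control replicate 1, where Crym was at 340.5. Without Crym dMF1/2 replicate 1 was lowest at 963, against 1079 to 1124 in the other P16 libraries. Other single genes of the list were also without overlap. Dsc2 had 92.2, 57.9 and 87.8 in P14 controls and 42.0, 17.1 and 15.6 in P14 dMF1/2 mice. At P16 Dsc2 had 76.8, 92.3 and 122 in controls and 7.56, 14.9 and 13.8 in dMF1/2 mice. Dlx3 was also lower in dMF1/2 mice at P16, whereas Foxq1 at P14 and Msx1 at P16 were higher. The summed hair shaft and inner root sheath keratins overlapped between genotypes on both days.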
